A study of Mus musculus with 6 samples.

Results

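The E2F and retinoblastoma family was examined in RNA-sequencing of Raw264.7 cells, a mouse macrophage line that the labels trace to a tumor induced by Abelson murine leukemia virus. Its 10 members were taken by gene symbol out of 24786 symbols in the deposited table. They comprise the activator E2Fs *E2f1*, *E2f2* and *E2f3*, the repressor E2Fs *E2f4*, *E2f5*, *E2f7* and *E2f8*, and the pocket proteins *Rb1*, *Rbl1* and *Rbl2*. Cells infected with a lentivirus carrying a control shRNA (sh-NC, 3 control libraries) were compared with cells in which an shRNA targeted *Etv5* (sh-*Etv5*, 3 knockdown libraries), the gene of an ETS-family transcription factor. The labels give C57BL/6 as the strain of both groups, but the study names that strain for its mice and gives none for this line. The labels also give 24 or 48 h after infection as the time at which expression was read. The study describes the sequenced cells as stably transfected, and its methods keep infected Raw264.7 cells in puromycin through passage. The time from infection to sequencing is thus not known. The shRNA used for sequencing is not named in the sources used here, nor do they say whether each library had its own infection. The p-values therefore measure the spread between libraries, which may be technical.

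E2Fs are transcription factors that control entry into the phase of DNA synthesis. The activators turn on genes for DNA replication and nucleotide supply, and they are held back by the retinoblastoma protein until cyclin-dependent kinases phosphorylate it. *E2f4* and *E2f5* encode E2Fs that repress the same genes in resting cells, together with the pocket proteins p107 (*Rbl1*) and p130 (*Rbl2*). *E2f7* and *E2f8* encode atypical E2Fs, which carry a pair of DNA-binding domains, need neither a DP partner nor a pocket protein, and repress E2F target genes late in the cell cycle. Several genes of the family are themselves known E2F targets.

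Values were deposited as RPKM, a read density scaled for gene length and sequencing depth, so that levels of different genes can be set side by side. The RPKM sum of a control library lay between 320462 and 322949, and that of a knockdown library between 330454 and 340257. Read numbers are not contained in such values, so the depth behind them is unknown. *Etv5* had 9.18, 9.89 and 9.39 RPKM in the control libraries against 5.19, 4.91 and 5.28 RPKM in the knockdown libraries (log2 fold change -0.78, adjusted p = 2.74e-07 by limma). Of 10 macrophage markers, 9 were above the filter on low values and *Mertk* was near 0. The 10 markers summed to 4490 to 4616 RPKM in control and 3587 to 3704 RPKM in knockdown libraries. Most of that sum was *Lyz2*, at 2810 to 2881 RPKM in control and 1981 to 2086 RPKM in knockdown libraries. Of the 9 markers tested, 4 rose and 4 fell, beside 33.3% and 41.0% of all genes tested. The 12 markers of other cell types summed to at most 0.806 RPKM in any library. Those sums ran from 0.225 to 0.407 RPKM in the controls and from 0.538 to 0.806 RPKM in the knockdown, with 6 to 9 of the 12 markers at 0 in each library. The part of these marker changes in the results was not tested.

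The starts of several members were read for the E2F motif, because family members can be regulated by E2Fs. RefSeq promoter windows on GRCm38.p6 were matched for 7 of the 10 members, with 9 windows in all, and *E2f4*, *E2f5* and *Rb1* were not in that table. The E2F motif was searched as TTCCCGC and its variants TTCGCGC, then TTGCCGC, then TTGGCGC, on both strands in the 250 bases before each start. It was present in 4 of the 9 windows, those of *E2f7*, *E2f8*, *Rbl1* and the upstream start of *E2f3*, and in 7.89% of the 32851 windows of the table. The ETS motif CCGGAAG, searched because ETV5 is an ETS factor, was present in 1 of the 9 windows, that of *E2f7*, and in 6.91% of all windows. The motif letters were chosen after the windows were seen, and the windows of the whole table were not matched for base composition. These shares are therefore not a test of enrichment. The window of *E2f1* and 1 of the 2 windows of *E2f2* lie over coding sequence of the same gene in GENCODE release M21, so they may not be the starts used in these cells. The windows with a match are written 5′ to 3′ on the strand of the gene, ending at the base before the annotated start, with matches to either motif in capitals. Matches are letters only and were not tested for binding.
E2f7 (chr10:110745189-110745438, plus strand): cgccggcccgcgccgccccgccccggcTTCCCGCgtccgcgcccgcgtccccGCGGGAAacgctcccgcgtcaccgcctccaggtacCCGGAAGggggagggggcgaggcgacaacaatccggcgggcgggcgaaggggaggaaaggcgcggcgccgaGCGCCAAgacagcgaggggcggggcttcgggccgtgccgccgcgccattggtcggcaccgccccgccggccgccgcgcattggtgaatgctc
E2f8 (chr7:48881597-48881846, minus strand): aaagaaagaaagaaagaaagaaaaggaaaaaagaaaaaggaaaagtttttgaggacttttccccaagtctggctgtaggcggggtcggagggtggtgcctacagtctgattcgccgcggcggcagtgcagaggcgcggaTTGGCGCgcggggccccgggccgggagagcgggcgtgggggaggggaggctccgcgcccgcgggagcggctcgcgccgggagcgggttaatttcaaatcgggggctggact
Rbl1 (chr2:157204535-157204784, minus strand): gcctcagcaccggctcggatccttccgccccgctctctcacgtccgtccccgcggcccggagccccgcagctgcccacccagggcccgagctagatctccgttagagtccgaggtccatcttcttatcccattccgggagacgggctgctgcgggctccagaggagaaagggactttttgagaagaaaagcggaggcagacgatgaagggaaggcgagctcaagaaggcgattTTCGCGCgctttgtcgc
E2f3 (chr13:29986064-29986313, minus strand): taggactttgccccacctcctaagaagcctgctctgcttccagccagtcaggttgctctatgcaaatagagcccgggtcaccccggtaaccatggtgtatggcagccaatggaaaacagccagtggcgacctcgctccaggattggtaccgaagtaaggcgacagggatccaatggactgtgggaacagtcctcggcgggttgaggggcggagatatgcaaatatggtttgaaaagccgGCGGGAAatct
In *E2f7*, E2F matches begin 223, 198 and 92 bases before the start and the ETS match begins 163 bases before it. In *E2f8* the match begins 111 bases before the start, in *Rbl1* 17 bases and in *E2f3* 11 bases before it.

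Most members of the family were lower in sh-*Etv5* cells. The share of members called was near the share of all genes called in either direction. All 10 members passed the filter on low values (RPKM of 1 or more in 3 or more libraries) and were tested with limma on log2(RPKM + 1). At an adjusted p-value under 0.05, 7 members fell, none rose and *E2f1*, *E2f5* and *Rb1* did not pass. By comparison, 41.0% of the 10738 genes tested were called lower and 33.3% were called higher, 74.3% in either direction. The median log2 fold change was -0.34 over the members and -0.05 over all genes tested. In 9 members every sh-*Etv5* library was below every sh-NC library, an arrangement seen in 42.1% of the genes tested. The opposite arrangement held for 34.3% of genes and for none of the members, so 76.4% of all genes did not overlap between groups. RNA of a whole culture was measured, so fewer cells that express a gene and less RNA per cell cannot be told apart.

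**Figure D1:**
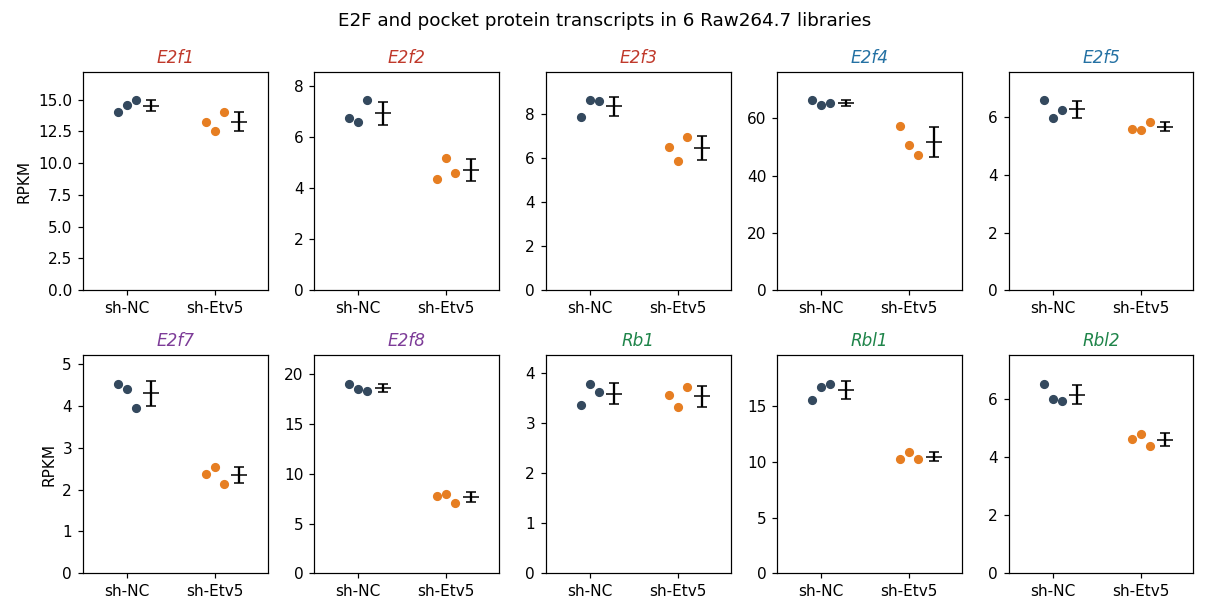
RPKM of the 10 members in each library of sh-NC (dark) and sh-*Etv5* cells (orange), with the mean and SD of 3 libraries beside the points and axes that start at 0. The groups are separate for 9 members, as for 76.4% of all genes tested, and overlap for *Rb1*. The widest gap is that of *E2f8*.

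The atypical repressors had the lowest log2 fold changes of the members, although the confidence interval of *E2f7* overlapped those of *Rbl1* and *E2f2*. *E2f8* (GRCm38 chromosome 7, 48866429 to 48881596, minus strand) had 19.1, 18.6 and 18.3 RPKM in the control libraries against 7.82, 8.02 and 7.07 RPKM in the knockdown libraries. Every sh-*Etv5* library was far below the control libraries. The mean fell by 59.1%, with group means of 18.7 ± 0.382 and 7.64 ± 0.504 RPKM (SD, n = 3) and a log2 fold change of -1.19 (SE 0.0544, adjusted p = 6.12e-09 by limma). It was the only member whose log2 fold change exceeded 1 in size, and 3.0% of the genes tested were called lower by that much. Of the 50-base sequences in *E2f8* transcripts, 8.26% also occur in *Gm2788*, which lies on the opposite strand.

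*E2f7* (chromosome 10, 110745439 to 110787384, plus strand), which overlaps in function with *E2f8*, had 4.53, 4.41 and 3.94 RPKM in the control libraries against 2.36, 2.53 and 2.14 RPKM in the knockdown libraries. The lowest control library was above the highest sh-*Etv5* library. The mean fell by 45.4%, with a log2 fold change of -0.66 (SE 0.0752, adjusted p = 1.11e-05 by limma). Adding 1 to RPKM before taking logs shrinks the change of genes at low levels, and the log2 fold change of *E2f7* was -0.87 with a pseudocount of 0.01. Exons of *E2f7* overlap *1700020G17Rik* on the opposite strand, which was listed at 0 RPKM in every library.

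Among the activators, *E2f2* and *E2f3* fell while *E2f1* did not pass the test, although the confidence intervals of *E2f1* and *E2f3* overlapped. *E2f1* (chromosome 2, 154559407 to 154569892, minus strand), whose product drives S-phase genes and can also promote apoptosis, had 14.1, 14.6 and 14.95 RPKM in the control libraries against 13.3, 12.5 and 14.1 RPKM in the knockdown libraries. Its groups were separated only by the narrow gap between the highest sh-*Etv5* library and the lowest sh-NC library. The log2 fold change was -0.12 (95% confidence limits -0.24 and -0.01, adjusted p = 0.0540 by limma). The call on *E2f1* depended on scaling and on a library: the limma adjusted p was 0.0077 when all libraries were given 1 RPKM sum and 0.0160 without sh-*Etv5* replicate 3, but 0.195 (log2 fold change -0.077) when libraries were centred on the median gene.

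*E2f2* (chromosome 4, 136172394 to 136196057, plus strand), an activator that acts redundantly with *E2f1* in dividing cells, had 6.75, 6.58 and 7.43 RPKM in the control libraries against 4.36, 5.17 and 4.59 RPKM in the knockdown libraries. All sh-*Etv5* libraries were lower, and the mean fell by 32.01% (log2 fold change -0.47, SE 0.0713, adjusted p = 0.000106 by limma). *E2f3* (chromosome 13, 29906575 to 29986063, minus strand), which has an upstream and an internal promoter, had 7.84, 8.62 and 8.58 RPKM in the control libraries against 6.50, 5.88 and 6.95 RPKM in the knockdown libraries. The groups did not overlap, and the mean fell by 22.7% (log2 fold change -0.33, SE 0.0672, adjusted p = 0.00102 by limma). The file has 1 value per symbol, so the transcripts of the *E2f3* promoters were not separated.

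Of the repressors that bind pocket proteins, *E2f4* fell and *E2f5* did not pass the test, although their confidence intervals overlapped. *E2f4* (chromosome 8, 105297663 to 105305370, plus strand), the main E2F of resting cells, was the most abundant member in both groups. It had 66.2, 64.5 and 65.2 RPKM in the control libraries against 57.3, 50.7 and 47.1 RPKM in the knockdown libraries. The sh-*Etv5* libraries were all lower but were spread more widely, with means of 65.3 ± 0.881 and 51.7 ± 5.13 RPKM (SD, n = 3). For *E2f4* the log2 fold change was -0.34 (SE 0.0590, adjusted p = 0.000348 by limma).

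*E2f5* (chromosome 3, 14578641 to 14606309, plus strand), a close relative of *E2f4*, had 6.59, 5.97 and 6.26 RPKM in the control libraries against 5.61, 5.55 and 5.85 RPKM in the knockdown libraries. The highest sh-*Etv5* library lay just under the lowest sh-NC library. The log2 fold change was -0.12 (95% confidence limits -0.25 and 0.01, adjusted p = 0.0754 by limma). The limma adjusted p for *E2f5* was 0.0186 with libraries rescaled to the same sum, 0.0238 with quantile normalization and 0.045 without the intensity trend. It was 0.236 (log2 fold change -0.079) after centring on the median gene and 0.235 without sh-NC replicate 1. Exons of *E2f5* overlap *1810022K09Rik* on the opposite strand, which had 17.7 ± 0.798 RPKM in the controls and 15.2 ± 1.79 RPKM in the knockdown (SD, n = 3).

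The pocket proteins differed among themselves. *Rbl1* (chromosome 2, 157145893 to 157204534, minus strand), which encodes p107 and is most abundant in dividing cells, had 15.5, 16.7 and 17.02 RPKM in the control libraries against 10.3, 10.9 and 10.2 RPKM in the knockdown libraries. The groups were well apart, and the mean fell by 36.2%, with a log2 fold change of -0.60 (SE 0.0522, adjusted p = 1.17e-06 by limma). *Rbl2* (chromosome 8, 91070057 to 91123844, plus strand), which encodes p130, the pocket protein of resting cells, had 6.53, 5.99 and 5.92 RPKM in the control libraries against 4.63, 4.79 and 4.37 RPKM in the knockdown libraries. It was lower in each sh-*Etv5* library, and the mean fell by 25.2% (log2 fold change -0.35, SE 0.0628, adjusted p = 0.000387 by limma). Of the 50-base sequences in *Rbl2* transcripts, 17.1% also occur in *Gm45464* or *Aktip*, and *Aktip* had 4.27 ± 0.237 RPKM in the controls and 4.77 ± 0.176 RPKM in the knockdown (SD, n = 3).

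*Rb1* (chromosome 14, 73183673 to 73325822, minus strand) encodes the retinoblastoma protein, which restrains the activator E2Fs. It had 3.36, 3.79 and 3.61 RPKM in the control libraries against 3.55, 3.31 and 3.72 RPKM in the knockdown libraries. The groups overlapped, and the log2 fold change was -0.02 (95% confidence limits -0.17 and 0.14, adjusted p = 0.823 by limma) and turned positive (0.028) when libraries were centred on the median gene. Of the 50-base sequences in *Rb1* transcripts, 12.0% are shared with *Rcbtb2* or *Lpar6*, whose exons overlap *Rb1* on the opposite strand. *Rcbtb2* fell from 3.60 ± 0.181 to 2.03 ± 0.0767 RPKM (SD, n = 3, adjusted p = 1.16e-05 by limma), while *Lpar6* was at 3.08 ± 0.144 and 3.35 ± 0.146 RPKM.

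**Figure D2:**
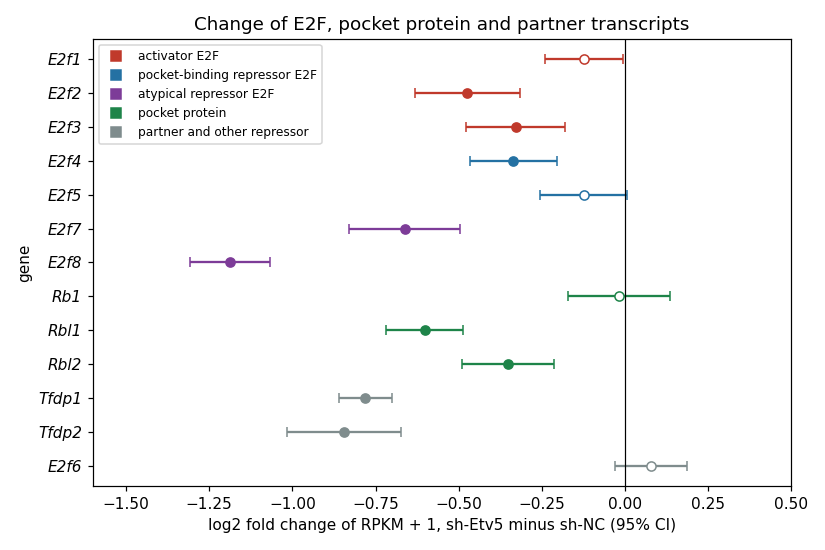
Log2 fold change of RPKM + 1 (sh-*Etv5* minus sh-NC) with its 95% confidence interval from limma for the 10 members, the DP partners and *E2f6*, colored by role. Filled points passed an adjusted p-value of 0.05 and open points did not, and among the 10 members *E2f8* at -1.19 lies farthest from 0.

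The order of the members by RPKM differed between the groups. In sh-NC cells it ran *E2f4*, *E2f8*, *Rbl1*, *E2f1*, *E2f3*, *E2f2*, *E2f5*, *Rbl2*, *E2f7* and *Rb1*. In this order the libraries of *E2f2* and *E2f5*, and of *E2f5* and *Rbl2*, overlapped, whereas the other neighbors did not. In sh-*Etv5* cells it ran *E2f4*, *E2f1*, *Rbl1*, *E2f8*, *E2f3*, *E2f5*, *E2f2*, *Rbl2*, *Rb1* and *E2f7*, with an overlap only between *E2f2* and *Rbl2*. *E2f8* thus moved from rank 2 to rank 4 and *E2f1* from rank 4 to rank 2. The ratio of *E2f8* to *E2f1* RPKM was 1.36, 1.27 and 1.23 in the sh-NC libraries and 0.590, 0.641 and 0.503 in the sh-*Etv5* libraries. RPKM of *E2f8*, *Rb1* and *Rbl2* may include reads of the overlapping genes named above. The part of such reads in this order and ratio was not tested.

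Activators and repressors were compared within each library as shares of the summed RPKM of the 7 E2Fs. The atypical repressors took 18.9%, 18.6% and 17.9% in sh-NC cells and 10.5%, 11.7% and 10.5% in sh-*Etv5* cells, so that the groups did not overlap. The pocket-binding repressors took 57.6% ± 0.563 in sh-NC cells and 62.4% ± 2.18 in sh-*Etv5* cells (SD, n = 3), without overlap. The activators took 24.0% ± 0.974 and 26.7% ± 2.23 (SD, n = 3), and their groups overlapped. The difference in the activator share was 1.48 percentage points without sh-*Etv5* replicate 3, against 2.72 with all libraries. These shares were not tested, since they were scored over chosen genes. A larger share was not a higher level, as the summed RPKM of each role was lower after knockdown. Activator sums were 28.7, 29.8 and 31.0 RPKM in control against 24.1, 23.6 and 25.6 RPKM in knockdown cells. Those of the pocket-binding repressors were 72.8, 70.5 and 71.5 against 62.9, 56.3 and 53.0 RPKM. For the atypical repressors they were 23.6, 23.0 and 22.3 against 10.2, 10.6 and 9.21 RPKM. Without *E2f4*, which made up most of the sum, the activators took 50.5% ± 1.68 in sh-NC cells and 60.9% ± 1.83 in sh-*Etv5* cells (SD, n = 3).

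Among the pocket proteins, *Rb1* took 13.2%, 14.3% and 13.6% of the summed RPKM in sh-NC cells and 19.3%, 17.4% and 20.3% in sh-*Etv5* cells. *Rbl1* took the largest share in both groups, at 62.8% ± 1.54 and 56.3% ± 0.989 (SD, n = 3). The shares of *Rbl2* overlapped between the groups. The level of *Rb1* itself did not pass the test, as given above. Reads of overlapping genes may add to *Rb1* and *Rbl2*, and their part in these shares was not tested.

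**Figure D3:**
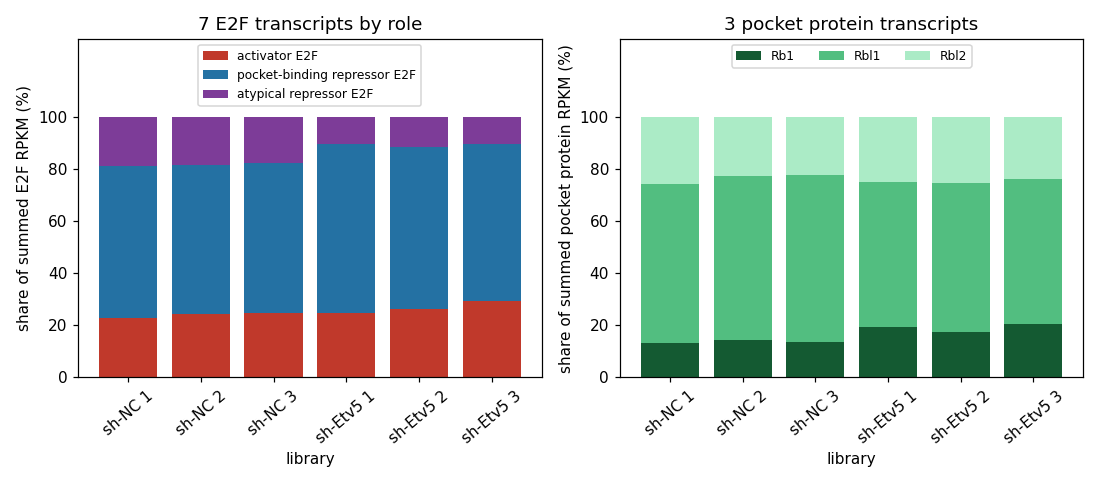
Share of the summed RPKM of the 7 E2Fs by role (left) and of the 3 pocket proteins by gene (right) in each library, in percent. The atypical repressors take between 17.9% and 18.9% in the sh-NC libraries and between 10.5% and 11.7% in the sh-*Etv5* libraries.

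Most E2Fs bind DNA as dimers with a DP protein. The genes of both DP partners measured here fell, beside 41.0% of all genes tested. *Tfdp1* had 87.3, 89.7 and 89.5 RPKM in the control libraries against 49.5, 51.6 and 52.9 RPKM in the knockdown libraries, with a log2 fold change of -0.78 (adjusted p = 6.84e-09 by limma). *Tfdp1* was more abundant than any E2F in sh-NC cells. *Tfdp2* had 2.48, 2.85 and 2.59 RPKM in the control libraries against 0.942, 1.07 and 1.07 RPKM in the knockdown libraries, with a log2 fold change of -0.85 (adjusted p = 1.86e-06 by limma). As *Tfdp2* was near 1 RPKM, its log2 fold change was -1.36 with a pseudocount of 0.01. *E2f6*, a repressor that does not bind pocket proteins, was at 12.4 ± 0.588 and 13.2 ± 0.167 RPKM (SD, n = 3). It did not pass the test (log2 fold change 0.08, adjusted p = 0.173 by limma), but did when libraries were centred on the median gene (adjusted p = 0.0387 by limma).

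The MuvB core joins p107 or p130 with E2Fs to repress cell cycle genes and later joins B-Myb and FoxM1 to activate them. Of 7 genes of this group, 5 fell, *Lin52* rose and *Lin37* did not pass the test, with a median log2 fold change of -0.46, where 41.0% of all genes tested were lower and 33.3% higher. *Foxm1* fell from 35.3 ± 0.282 to 14.2 ± 0.761 RPKM (SD, n = 3, log2 fold change -1.26, adjusted p = 1.03e-09 by limma). *Mybl2*, which encodes B-Myb, fell from 34.8 ± 1.20 to 20.1 ± 1.21 RPKM (log2 fold change -0.76). The core genes *Lin54* and *Lin9* had log2 fold changes of -0.55 and -0.46, and *Rbbp4* of -0.23, while that of *Lin37* was -0.12 (adjusted p = 0.202 by limma). *Lin52* had 3.36, 3.74 and 3.04 RPKM in the control libraries against 3.71, 4.41 and 4.35 RPKM in the knockdown libraries. Its groups overlapped, and its call (log2 fold change 0.24, adjusted p = 0.0230 by limma) was lost without sh-NC replicate 1 or 3 or without sh-*Etv5* replicate 2 or 3.

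The G1 cyclins and kinases phosphorylate pocket proteins and so release E2Fs. Of 8 such genes, 4 fell and 2 rose, beside 41.0% and 33.3% of all genes tested, and *Ccnd3* and *Ccne1* did not pass the test. *Ccnd2*, which encodes cyclin D2, rose from 2.70 ± 0.0502 to 10.6 ± 0.455 RPKM (SD, n = 3, log2 fold change 1.64, adjusted p = 8.65e-10 by limma). *Ccnd1*, the most abundant D cyclin here, fell from 214 ± 3.98 to 168 ± 2.74 RPKM (SD, n = 3, log2 fold change -0.35). *Cdk4* fell with a log2 fold change of -0.37, *Cdk2* with -0.33 and *Ccne2*, which encodes cyclin E2, with -0.62, whereas *Cdk6* rose with 0.21. *Ccnd3* (log2 fold change -0.06, adjusted p = 0.199 by limma) and *Ccne1* (0.01, adjusted p = 0.874 by limma) overlapped between the groups. *Ccnd3* passed when all libraries were given 1 RPKM sum (log2 fold change -0.12, adjusted p = 0.0247 by limma). The median log2 fold change over these 8 genes was -0.20.

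CDK inhibitors keep pocket proteins in their active form. Of 7 genes, *Cdkn1c*, *Cdkn2a* and *Cdkn2b* were below the filter on low values, 3 rose and *Cdkn2c* fell, beside 33.3% of all genes tested that rose and 41.0% that fell. *Cdkn1a*, which encodes p21, had 77.5, 73.8 and 77.8 RPKM in the control libraries against 192, 191 and 184 RPKM in the knockdown libraries. Its log2 fold change was 1.30 (SE 0.0352, adjusted p = 1.07e-10 by limma), and 6.23% of the genes tested were called higher by over 1. *Cdkn1b* and *Cdkn2d* rose with log2 fold changes of 0.35 and 0.40. *Cdkn2c*, which encodes p18, an inhibitor of the kinases that pair with D cyclins, fell from 29.4 ± 1.56 to 14.9 ± 0.815 RPKM (SD, n = 3, log2 fold change -0.94).

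Genes that E2Fs are known to activate were lower with few exceptions. Of 40 genes of DNA replication, nucleotide supply and cell cycle control, 38 fell, beside 41.0% of all genes tested. The list was chosen with earlier results of these data known, so the count describes these genes and is not a test. Their median log2 fold change was -0.68, against -0.05 over all genes tested. *Tk1*, which encodes thymidine kinase, fell from 81.0 ± 1.62 to 31.6 ± 1.70 RPKM (SD, n = 3, log2 fold change -1.33, adjusted p = 3.91e-10 by limma). *Ccna2*, which encodes cyclin A2, fell from 72.2 ± 1.68 to 28.7 ± 0.182 RPKM (SD, n = 3, log2 fold change -1.30). *Uhrf1*, which encodes a factor that maintains DNA methylation, had a log2 fold change of -1.02, and *Mcm7*, a subunit of the replicative helicase, of -1.01. The exceptions, named after their values were seen, were *Apaf1* and *Orc1*. *Apaf1*, which encodes the scaffold of the apoptosome, rose from 6.20 ± 0.363 to 8.74 ± 0.596 RPKM (SD, n = 3, log2 fold change 0.43, adjusted p = 0.000103 by limma). *Orc1*, a subunit of the origin recognition complex, was at 7.43 ± 0.388 and 7.94 ± 0.278 RPKM (SD, n = 3) and did not pass the test (adjusted p = 0.203 by limma).

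**Figure D4:**
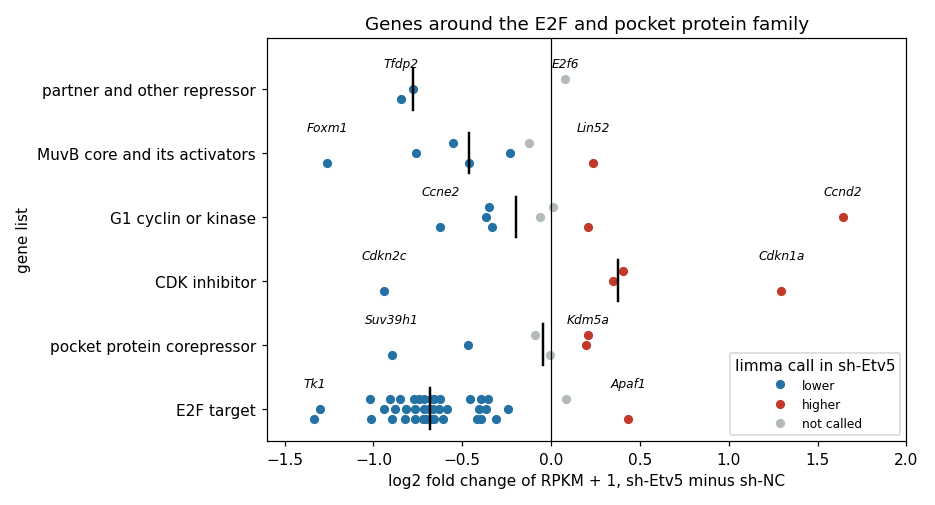
Log2 fold change of RPKM + 1 (sh-*Etv5* minus sh-NC) of the tested genes of 6 lists around the family, 1 point per gene, with a bar at the median of each list and the lowest and highest gene named. Of the 40 E2F targets, 38 lie on the lower side and were called, beside 41.0% of all genes tested. *Cdkn1a* and *Ccnd2* stand out to the right.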

How the data were processed

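Messenger RNA of 3 sh-NC and 3 sh-*Etv5* libraries was used, grouped by the sample labels. The kit named for library preparation (Illumina TruSeq RNA v2) does not mark strand, so reads of overlapping genes on opposite strands cannot be told apart. The authors deposited RPKM values from coverage tracks, without log transformation, on build mm10 according to the submitters' processing notes. The aligner, counter and annotation are not given in the sources used here, and depth is unknown.

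A gene was tested if 3 or more of the 6 libraries had an RPKM of 1 or more. Two-sided limma tests (version 3.58.1, R 4.3.3, moderated with an intensity trend and without covariates) were run on log2(RPKM + 1), and a gene was called at a Benjamini-Hochberg adjusted p-value under 0.05 across all genes tested. With 3 libraries a group, the smallest exact permutation p-value is 0.1. On simulated data for this comparison over 10738 genes, 87 of 100 genes changed by 0.5 and 187 of all 200 changed genes were called, with 4 false calls. Only those 200 genes were changed in the simulation, whereas 74.3% of genes were called in the data. The changed genes were also drawn only from genes above a minimum mean level, so recovery of the lowest genes tested was not simulated. The simulated rates may therefore not hold here.

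The members and lists were chosen with earlier results of these data known. The rule named the members, *Etv5*, *E2f6*, the DP genes, the genes of lists of up to 8 genes and the 4 largest changes of each longer list. *Apaf1*, *Orc1*, *Ptprc*, *Mertk* and *Lyz2* fall outside it and were named after their values were seen. Genes that overlap a member were named for that overlap. Positions and shared 50-base sequences came from GENCODE release M21 (GRCm38) and promoters from RefSeq. The motif letters were chosen after the windows were seen. Alternatives were other pseudocounts, filters, scalings, thresholds, a replicate block and each library left out in turn.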

Additional observations from a re-analysis of the deposited data

How the results depend on the processing

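The 7 members called lower were the same 7 genes with pseudocounts of 0.1 and 0.01, without a filter, without the intensity trend, with each rescaling and with each library left out, and 6 of them were tested and called with a mean RPKM of at least 5. Same-numbered libraries did not deviate together (correlations 0.0739, -0.0710 and -0.0352), and with the replicate block the log2 fold change of *E2f8* was -1.19 and 7 members were lower. No call on a member changed with the block. *E2f1* passed when all libraries were given 1 RPKM sum (-0.18), and *E2f5* passed with that rescaling (-0.18), quantile normalization (-0.17) and no trend (-0.12). With each library left out in turn, *E2f1* ran from -0.16 to -0.084 and *Rb1* from -0.054 to 0.017, and centring on the median gene, an alternative added after the data were seen, gave 0.028 for *Rb1*. Requiring an absolute log2 fold change above 1 left 1 member lower (*E2f8*) and dropped *E2f2* (-0.47), *E2f3* (-0.33), *E2f4* (-0.34), *E2f7* (-0.66), *Rbl1* (-0.60), *Rbl2* (-0.35) and *Etv5* (-0.78). It also left 0 DP genes, 1 MuvB gene, 0 G1 genes, 0 CDK inhibitors, 0 corepressors and 4 E2F targets lower. It left 0 E2F targets, 1 G1 gene, 1 CDK inhibitor, 0 corepressors and 0 MuvB genes higher. The shares of all genes tested that were called beyond this limit are given above with *E2f8* (lower) and *Cdkn1a* (higher). The count of DP genes depended on the pseudocount, as the log2 fold change of *Tfdp2* exceeded the limit in size with the smaller pseudocounts. The 1 MuvB gene called higher, *Lin52*, was not called (0 genes) without a filter, with a mean RPKM of at least 5, rescaled, quantile normalized or at an adjusted p under 0.01, and the count ran from 0 to 1 with a library left out. With a mean RPKM of at least 5, 1 DP gene was lower, without a filter 1 corepressor was higher, and centring called 1 gene (*E2f6*) higher. Without *E2f4*, the difference in share between the groups was 10.5 percentage points for the activators (2.72 with it, and 1.48 to 3.65 with a library left out) and -14.0 for the atypical repressors (-7.58 with it). *Ccne1* changed sign when rescaled (-0.048, and -0.024 to 0.061 with a library left out), as did *Hdac1* with quantile normalization and centring (0.038 and 0.042, and -0.040 to 0.022 with a library left out), and neither was called. Except where the construction shows it, the cause was not tested.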

Other observations

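Pocket proteins silence genes through histone-modifying partners. Of 6 such corepressor genes, 2 fell, 2 rose and *Hdac1* and *Arid4a* did not pass the test, beside 41.0% of all genes tested that fell and 33.3% that rose. Their log2 fold changes ran from -0.89 to 0.21. *Suv39h1*, which encodes a histone methyltransferase, fell from 27.4 ± 0.488 to 14.3 ± 0.527 RPKM (SD, n = 3, log2 fold change -0.89, limma adjusted p = 9.92e-09). *Hdac2*, which encodes a histone deacetylase, fell from 42.5 ± 0.481 to 30.4 ± 1.22 RPKM (SD, n = 3, log2 fold change -0.47). *Kdm5a*, which encodes a histone demethylase, and *Sin3b*, a corepressor scaffold, rose with log2 fold changes of 0.21 and 0.20, and the call on *Sin3b* was lost without the filter on low values (limma adjusted p = 0.0625). *Hdac1* was at 21.7 ± 0.299 and 21.7 ± 1.04 RPKM (SD, n = 3), and *Arid4a* had a log2 fold change of -0.09 (adjusted p = 0.196 by limma), which was -0.15 with quantile normalization (adjusted p = 0.0383 by limma).

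Of the 9 macrophage markers tested, 4 rose, 4 fell and *Ptprc* did not pass the test. Of all genes tested, 33.3% rose and 41.0% fell. *Adgre1* rose from 2.60 ± 0.119 to 11.3 ± 0.757 RPKM (SD, n = 3). *Itgam*, which encodes CD11b, rose from 33.8 ± 0.746 to 127 ± 7.21 RPKM and *Csf1r*, the receptor for macrophage colony-stimulating factor, fell from 428 ± 4.56 to 244 ± 6.72 RPKM (SD, n = 3).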
